A study of Mus musculus with 9 samples.

Results

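The genes described are 10 mouse members of the UDP-glucuronosyltransferase (Ugt) families 1 to 3: Ugt1a1, Ugt1a6a, Ugt2a3, Ugt2b1, Ugt2b5, Ugt2b34, Ugt2b35, Ugt2b36, Ugt2b38 and Ugt3a2. They were found by matching gene IDs to symbols, and they are 10 of the 21 Ugt genes and of the 45513 annotated genes in the count table. Livers of C57BL/6 mice were collected after 9 weeks of diet and treatment, in 3 groups of 3 libraries. The first group had a high fat diet and B-LGND2. The files give only a code name for this compound, which from the title of the series is a ligand of estrogen receptor beta. The second had a high fat diet and vehicle, and the third a normal diet and vehicle. All 3 groups were of one strain, and no transgene or deletion is named. The sources used here do not state age, sex, dose or the make-up of the diets. The labels give 3 replicates a group and do not describe them further, so p-values measure only how far these samples spread, which may in part be technical.

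UDP-glucuronosyltransferases sit in the membrane of the endoplasmic reticulum and join glucuronic acid, taken from UDP-glucuronic acid, to bilirubin, steroids, bile acids, fatty acids, phenols and drugs. The conjugates are more soluble in water and leave the hepatocyte into bile or blood through ATP-driven transporters. In mouse the Ugt1a genes share one locus in which alternative first exons are spliced to a common set of last exons, whereas each Ugt2 and Ugt3 gene described here is a separate gene, most of them products of local duplication. Ugt1a genes carry the bilirubin and phenol conjugating enzymes, and Ugt2b genes those best known for steroids and bile acids. Ugt genes in liver are known targets of the xenobiotic sensors CAR, PXR and AhR.

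Ugt1a1 (chr1:88211959-88218997) and Ugt1a6a (chr1:88134809-88218997) lie on the plus strand and end at the same base. Ugt2b34 (chr5:86889767-86906937), Ugt2b1 (chr5:86916638-86926530), Ugt2b35 (chr5:87000860-87013275), Ugt2b36 (chr5:87065927-87092555), Ugt2b5 (chr5:87124960-87140318), Ugt2a3 (chr5:87324972-87337195) and Ugt2b38 (chr5:87409942-87424203) follow each other on chromosome 5, all on the minus strand but Ugt2b35. Ugt3a2 (chr15:9335550-9370955) is on the plus strand of chromosome 15. These are gene spans of GENCODE release M21 on GRCm38.

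Upstream sequence was at hand from RefSeq (GRCm38.p6) for 9 of the 10 genes, all but Ugt3a2. The 6 genes that passed the expression test in at least 1 comparison are shown by the 250 bases before their RefSeq start, 5′ to 3′ on the strand of the gene. Their windows are chr5:87140341-87140590 (minus strand) for Ugt2b5, chr5:87000610-87000859 (plus) for Ugt2b35, chr5:87092556-87092805 (minus) for Ugt2b36, chr5:87424204-87424453 (minus) for Ugt2b38, chr1:88211709-88211958 (plus) for Ugt1a1 and chr1:88134559-88134808 (plus) for Ugt1a6a. Capitals mark AGGTCA, an element bound by nuclear receptors, on either strand.
Ugt2b5: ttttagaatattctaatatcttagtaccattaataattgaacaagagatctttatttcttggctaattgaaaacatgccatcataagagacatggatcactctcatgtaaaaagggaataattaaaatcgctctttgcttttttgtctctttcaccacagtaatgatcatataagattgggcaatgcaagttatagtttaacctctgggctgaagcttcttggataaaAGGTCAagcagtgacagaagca
Ugt2b35: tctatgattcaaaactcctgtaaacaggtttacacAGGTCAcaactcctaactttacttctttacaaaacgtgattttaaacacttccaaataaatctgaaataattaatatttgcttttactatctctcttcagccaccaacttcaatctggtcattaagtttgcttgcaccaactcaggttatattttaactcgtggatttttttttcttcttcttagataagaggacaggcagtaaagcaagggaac
Ugt2b36: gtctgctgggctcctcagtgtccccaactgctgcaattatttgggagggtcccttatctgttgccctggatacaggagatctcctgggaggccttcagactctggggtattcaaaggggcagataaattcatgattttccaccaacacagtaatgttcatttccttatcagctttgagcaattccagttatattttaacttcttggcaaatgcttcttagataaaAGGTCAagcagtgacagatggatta
Ugt2b38: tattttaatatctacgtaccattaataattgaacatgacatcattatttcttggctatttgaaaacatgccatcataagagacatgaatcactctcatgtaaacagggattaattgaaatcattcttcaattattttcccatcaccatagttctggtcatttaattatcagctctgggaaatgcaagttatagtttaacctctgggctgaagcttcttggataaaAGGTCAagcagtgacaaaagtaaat
Ugt1a1: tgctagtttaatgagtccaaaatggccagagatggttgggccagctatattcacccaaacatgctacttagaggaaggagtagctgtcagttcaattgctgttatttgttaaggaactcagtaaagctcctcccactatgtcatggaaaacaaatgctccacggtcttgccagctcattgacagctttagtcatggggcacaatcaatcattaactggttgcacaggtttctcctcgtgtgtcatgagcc
Ugt1a6a: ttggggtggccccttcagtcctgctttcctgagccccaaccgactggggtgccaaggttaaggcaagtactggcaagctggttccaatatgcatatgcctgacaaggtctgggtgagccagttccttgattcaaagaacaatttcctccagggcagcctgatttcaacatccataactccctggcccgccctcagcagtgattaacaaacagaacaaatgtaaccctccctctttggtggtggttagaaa

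The element AGGTCA was found in 4 of the 9 windows, those of Ugt2b5, Ugt2b35, Ugt2b36 and Ugt2b38, and in 14.0% of 32851 mouse promoter windows of the same length. The copy ended 17 bases before the start in Ugt2b5 and 20 bases before it in Ugt2b36 and Ugt2b38, and 210 bases before it in Ugt2b35. The variant AGTTCA was present in Ugt1a1 (11.8% of all windows). The C/EBP core TTGCNNAA was present in Ugt2b5 and Ugt2b36 (9.56% of all windows). The AhR core GCGTG was in none of the 9 windows and in 28.2% of all. Both strands were searched, no match of one motif was merged with another, and a match describes the letters of a window only. The windows are not independent: Ugt2b5 and Ugt2b38 were identical at 212 of 240 aligned bases (88.3%), Ugt2b5 and Ugt2b36 at 69.6% and Ugt2b5 and Ugt2b35 at 68.9%.

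The same resemblance runs through the transcripts and bears on how reads can be assigned. The longest transcripts of Ugt2b5 and Ugt2b38 were 95.7% identical, and 34.1% of the 50-base stretches of Ugt2b38 occur unchanged in Ugt2b5. For Ugt1a1, 82.7% of the exon bases are also exon bases of other gene models, and for Ugt1a6a 50.3%. The other 8 genes share no exon base with another model. Ugt2b1 and Ugt2b35 had no 50-base stretch in common with another Ugt transcript, Ugt2b36 had 0.326% and Ugt2b34 1.45%. The split of reads is therefore uncertain for Ugt1a1 and Ugt1a6a among the Ugt1a genes, among Ugt2b5, Ugt2b37 and Ugt2b38 (41.7% of the stretches of Ugt2b5 and 37.4% of those of Ugt2b38 occur in another Ugt transcript), and for Ugt3a2 against Ugt3a1, with which it shares 8.55% of its stretches.

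Library totals ran from 5778978 to 10322972 counts, and 12102 genes passed the filter on low counts. No pair of libraries agreed within sampling noise (lowest chi-square per degree of freedom 12.9 among 36 pairs). Hepatocyte markers summed to 68641 to 108535 counts per 1e6 (CPM) with B-LGND2, 70133 to 74846 in high fat vehicle livers and 69453 to 79400.0 on normal diet. Markers of kidney tubule, which also has Ugt genes, summed to at most 0.165 CPM in any library, and Kap and Slc22a6 were at 0 in all. Gene models of ribosomal RNA took 5.51% ± 1.04 of counts with B-LGND2, 1.20% ± 0.275 in the high fat vehicle group and 3.42% ± 0.299 in the normal diet group (mean ± SD, n = 3 each), with no overlap between groups. Longer transcripts were relatively more abundant in the high fat vehicle libraries, where transcript length and the deviation of a library from the mean had a Spearman correlation, taken across genes, of 0.327 ± 0.0303, against -0.0401 ± 0.175 with B-LGND2 and -0.154 ± 0.354 on normal diet. The same correlation with GC content was 0.209 ± 0.253 with B-LGND2, -0.0656 ± 0.0358 with high fat vehicle and -0.195 ± 0.0499 on normal diet. The GC correlations did not overlap between groups. Normal diet replicate 1 stood apart with 12.7% of counts in mitochondrially encoded transcripts, against at most 6.12% elsewhere. Normal diet replicate 3 had the lowest length correlation of all libraries, at -0.504, against 0.204 and -0.161 in replicates 1 and 2. The part of these differences in the results below was not tested beyond the fits with a correction for length and GC content and with the rRNA share as a covariate.

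All 10 genes passed the filter, with 17 to 6873 counts per library. Together they took 0.219% ± 0.0456 of all counts with B-LGND2, 0.315% ± 0.0296 in high fat vehicle livers and 0.363% ± 0.00461 on normal diet. After scaling, their summed level was 2085, 2145 and 2555 CPM in the B-LGND2 libraries, 2988, 2641 and 3115 CPM in the high fat vehicle libraries and 3702, 3552 and 4067 CPM in the normal diet libraries. The libraries of the 3 groups did not overlap in this sum, which was lowest with B-LGND2 and highest on normal diet. In bulk tissue, fewer cells of a type and less RNA per cell cannot be told apart.

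Per kilobase of annotated exon, Ugt2b5 was the most abundant of the 8 genes with exons of their own on normal diet, at 410.2 ± 88.1 CPM per kb. Ugt2b1 followed at 307 ± 50.3 and Ugt2b36 at 281 ± 81.3, and in this length-scaled level the libraries of neighbours among these 3 overlapped. Ugt2a3 stood at 161 ± 7.17, Ugt2b34 at 138 ± 2.40, Ugt3a2 at 94.5 ± 2.02, Ugt2b35 at 71.7 ± 12.8 and Ugt2b38 at 11.1 ± 2.19 CPM per kb. From Ugt2b36 downward, no library of a gene reached those of its neighbour in this order. On the high fat diet with vehicle the leading genes were closer: Ugt2b1 had 221 ± 65.3, Ugt2b5 196 ± 11.3, Ugt2b36 189 ± 23.2 and Ugt2a3 186 ± 20.7 CPM per kb, differences within the spread of Ugt2b1. With B-LGND2, Ugt2b1 had 186 ± 14.6, Ugt2b5 163 ± 22.9 and Ugt2a3 161 ± 17.1 CPM per kb, and Ugt2b36 119 ± 10.4. Under B-LGND2 and high fat vehicle, the lower 4 genes had 90.2 ± 12 and 125 ± 5.45 CPM per kb (Ugt2b34), 82.4 ± 24.2 and 96.9 ± 8.38 (Ugt3a2), 31.3 ± 6.10 and 35.0 ± 1.84 (Ugt2b35), and 11.3 ± 7.98 and 3.11 ± 1.79 (Ugt2b38). Ugt2b38 was the lowest of the 8 in every group.

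**Figure D1:**
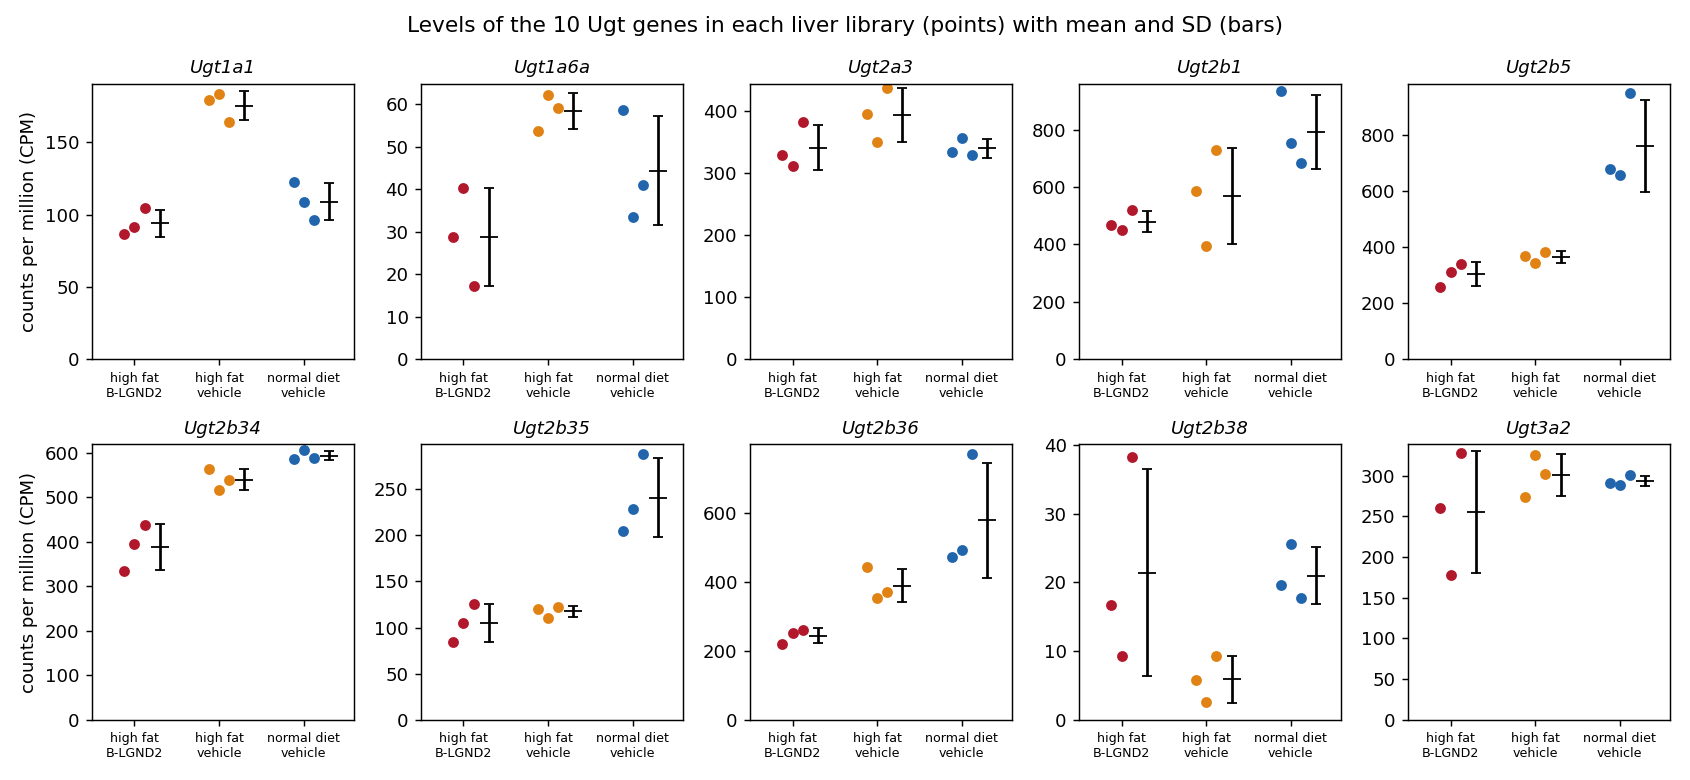
Level of each of the 10 Ugt genes in each liver library (y axes in counts per 1e6, from 0; 1 panel a gene), with high fat B-LGND2 left, high fat vehicle in the middle and normal diet vehicle right; points are libraries, bars the mean and SD of 3. Ugt2b5 and Ugt2b35 are high only on normal diet, Ugt1a1 and Ugt1a6a are higher on high fat diet with vehicle than with B-LGND2, and Ugt2b38 spreads from 9.27 to 38.3 CPM with B-LGND2.

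The first comparison, between both vehicle groups, is that of the diets. Ugt2b5 and Ugt2b35, 2 genes of the chromosome 5 cluster for steroid conjugating enzymes, fell on the high fat diet to less than the lowest normal diet library in each of 3 libraries. By the quasi-likelihood test of edgeR, adjusted over all genes by the Benjamini-Hochberg method, 2 of the 10 genes fell and 0 rose at an adjusted p of at most 0.05, where 2.99% of all genes were called, 1.50% higher and 1.49% lower. The median log2 fold change of the 10 was -0.31, against 0.01 over all genes tested, and that of the 6 Ugt2b genes was -0.80. With the correction for length and GC content these medians were -0.08 and -0.41. All 6 Ugt2b values were below 0, with Ugt2b34 at -0.14 turning to 0.02 without scaling beyond library size. For 6 genes no library of one group reached the other, of which high fat feeding had 1 higher and 5 lower. Of all genes 30.1% had no overlap, 15.4% higher and 14.8% lower. Without scaling the median of all genes moved to 0.17, and that of the 10 genes to -0.14.

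Ugt2b5 had 369, 342 and 384 CPM in the high fat vehicle libraries, against 679, 657 and 951 CPM in the normal diet libraries. The mean was 2.09-fold lower on the high fat diet, 365 ± 20.9 against 762 ± 164 CPM (SD, n = 3 each; log2 fold change -1.06, SE 0.22, edgeR adjusted p = 0.0220). Replicate 3 was the highest normal diet library, and the call was lost without it (0.0676) and without any 1 high fat vehicle library (0.0849 to 0.104). Corrected for length and GC content, the log2 fold change was -0.61 (adjusted p = 0.0583).

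Ugt2b35 followed the same pattern at a lower level, with 120.2, 110.4 and 122 CPM on high fat diet with vehicle, against 205, 229 and 289 CPM on normal diet. Its mean was 2.05-fold lower, 117 ± 6.19 against 241 ± 43.0 CPM (log2 fold change -1.04, SE 0.22, edgeR adjusted p = 0.0240). The call was kept with the length and GC correction (-0.83, adjusted p = 0.0192) and lost without scaling beyond library size (-0.86, adjusted p = 0.0546). It was also lost without normal diet replicate 2 (0.0620) or 3 (0.0701) and without any 1 high fat vehicle library (0.0985 to 0.118).

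The remaining Ugt2b genes did not pass. Ugt2b38, the near copy of Ugt2b5, had 5.77, 2.56 and 9.34 CPM (35, 17 and 67 counts) on high fat diet with vehicle, against 19.7, 25.6 and 17.7 CPM (126, 155 and 128 counts) on normal diet. No library of one group reached the other, and the log2 fold change of -1.82 (SE 0.49) was just short of the threshold (edgeR adjusted p = 0.0563). It passed without normal diet replicate 1 (0.0416) and without B-LGND2 replicate 2 (0.0372) or 3 (0.0330), libraries of the group not compared here. It also passed in the DESeq2 Wald test (0.00355) and when no filter was applied (1.71e-06). The fit without a filter called 1182 of all genes, against 362. The other fits that left out 1 library did not pass (edgeR adjusted p up to 0.230). Ugt2b38 was also not called without scaling beyond library size, in limma-voom or with the length and GC correction. Ugt2b36 had 443, 354 and 369 CPM against 473, 492 and 772 CPM on normal diet, also without overlap (-0.57, SE 0.23, adjusted p = 0.148), and -0.10 with the length and GC correction. Ugt2b1, whose rat namesake conjugates bisphenol A, had 585, 395 and 729.8 CPM against 935, 756 and 683 CPM, with overlapping groups (-0.47, SE 0.24, adjusted p = 0.250). Ugt2b34 differed least of the 6, with 563, 516 and 539 CPM against 586, 605 and 589 CPM (-0.14, SE 0.20, adjusted p = 0.708).

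For Ugt1a1, the enzyme of bilirubin conjugation, the difference was above 0. It had 179, 183 and 164 CPM on high fat diet with vehicle, against 122, 108 and 96.3 CPM on normal diet, higher in 3 of 3 libraries without overlap (log2 fold change 0.69, SE 0.20). It did not pass (edgeR adjusted p = 0.0668), but did without normal diet replicate 1 (0.0238), without scaling beyond library size (0.85, adjusted p = 0.0473), with the length and GC correction (0.81, adjusted p = 0.0330) and in the DESeq2 Wald test (0.0152). The other fits that left out 1 library did not pass (edgeR adjusted p up to 0.236). Ugt1a6a, which conjugates planar phenols, had 53.8, 62.1 and 59.1 CPM against 58.6, 33.4 and 41.1 CPM, with overlap (0.39, SE 0.28, adjusted p = 0.435). Ugt2a3, whose human counterpart conjugates bile acids, had 395, 349.5 and 437 CPM against 334, 357 and 329 CPM (0.21, SE 0.20, adjusted p = 0.548). Ugt3a2, whose human counterpart uses UDP-glucose and UDP-xylose in place of UDP-glucuronic acid, had 274, 326 and 301 CPM against 291, 288 and 300.3 CPM (0.04, SE 0.23, adjusted p = 0.944). For Ugt2a3 and Ugt3a2 the groups overlapped.

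The comparison on the high fat diet asks what B-LGND2 did. It shares the high fat vehicle libraries with the diet comparison, so the values of both are not independent and opposite signs of a gene in both carry no separate weight. Ugt1a1 and Ugt1a6a fell with B-LGND2 and Ugt2b38 rose, so 2 of the 10 fell and 1 rose, where 2.56% of all genes fell and 3.07% rose (5.63% in either direction). The median of the 10 was -0.26, against -0.00 over all genes, and 9 of 10 values were below 0. The groups did not overlap for 5 genes, all lower with B-LGND2, where 33.6% of all genes had no overlap and 17.2% were lower without overlap. Without scaling, the median of all genes was -0.18 and that of the 10 was -0.42. With the length and GC correction the median of the 10 was -0.13, and with the rRNA share as a covariate it was 0.36.

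Ugt1a1 had 86.4, 91.1 and 104 CPM with B-LGND2, against 179, 183 and 164 CPM on high fat diet with vehicle. Its mean was 1.87-fold lower with B-LGND2, 94.0 ± 9.33 against 175 ± 10.1 CPM (SD, n = 3 each; log2 fold change -0.90, SE 0.20, edgeR adjusted p = 0.0193), lower in 3 of 3 libraries without overlap. The normal diet libraries, at 109 ± 13.1 CPM, overlapped the B-LGND2 libraries. The call was kept with the length and GC correction (-0.87, adjusted p = 0.0125). It was lost without any 1 high fat vehicle library (0.0571 to 0.0989) and without B-LGND2 replicate 1 (0.0779).

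Ugt1a6a had 28.6, 40.3 and 17.2 CPM with B-LGND2, against 53.8, 62.1 and 59.1 CPM with vehicle. Its mean of 28.7 ± 11.6 CPM was 2.03-fold lower than 58.3 ± 4.23 CPM, without overlap (log2 fold change -1.02, SE 0.29, edgeR adjusted p = 0.0487). This call lay close to the threshold and was lost with the length and GC correction (-0.86, adjusted p = 0.0670), with the stricter filter on low counts (0.0506), and without normal diet replicate 2, any high fat vehicle library or B-LGND2 replicate 1 or 3 (0.0590 to 0.162).

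Ugt2b38 was the one of the 10 genes that rose. It had 16.7, 9.27 and 38.3 CPM with B-LGND2 (144, 63 and 230 counts), against 5.77, 2.56 and 9.34 CPM with vehicle (35, 17 and 67 counts). The lowest B-LGND2 library lay just under the highest vehicle library, so the groups overlapped, and the log2 fold change was 1.85 (SE 0.49, edgeR adjusted p = 0.0424). Without B-LGND2 replicate 3 the log2 fold change was 1.14 (adjusted p = 0.125), and the call was also lost without normal diet replicate 3 (0.0629), high fat vehicle replicate 1 (0.125) or 2 (0.148) and B-LGND2 replicate 1 (0.0921). It was lost as well without scaling beyond library size (1.70, adjusted p = 0.0660), in limma-voom (1.76, adjusted p = 0.0555) and with the length and GC correction (1.93, adjusted p = 0.0525). Set against Ugt2b5, from which part of its reads cannot be told apart, Ugt2b38 had 6.50, 2.97 and 11.3 counts per 100 of Ugt2b5 with B-LGND2, 1.57, 0.747 and 2.43 in high fat vehicle libraries and 2.90, 3.90 and 1.86 on normal diet. All 3 B-LGND2 libraries were above the 3 high fat vehicle libraries in this ratio, and the normal diet libraries overlapped both groups. The ratio restates the counts above, and the part of misassigned reads was not tested.

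Of the other 7 genes none passed. Ugt2b36 came nearest, with 219.7, 253 and 259.6 CPM with B-LGND2, against 443, 354 and 369 CPM with vehicle, without overlap (-0.67, SE 0.23, edgeR adjusted p = 0.0864), and it passed without normal diet replicate 3 (0.0297), without scaling (0.0377) and when only these 2 groups were fitted (0.0371). The other fits that left out 1 library did not pass (edgeR adjusted p up to 0.271). Ugt2b34 had 335, 394 and 438 CPM against 563, 516 and 539 CPM, also without overlap (-0.47, SE 0.20, adjusted p = 0.154). Ugt2b5 had 257, 313 and 340.4 CPM against 369, 342 and 384 CPM, where the highest B-LGND2 library was just under the lowest vehicle library (-0.27, SE 0.21, adjusted p = 0.466). Ugt2b35 had 84.2, 105 and 125 CPM against 120.2, 110.4 and 122 CPM, with overlap (-0.16, SE 0.22, adjusted p = 0.684). The log2 fold changes of Ugt2b1, Ugt2a3 and Ugt3a2 lay between -0.25 and -0.21 (adjusted p 0.545 to 0.553), with overlapping groups.

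**Figure D2:**
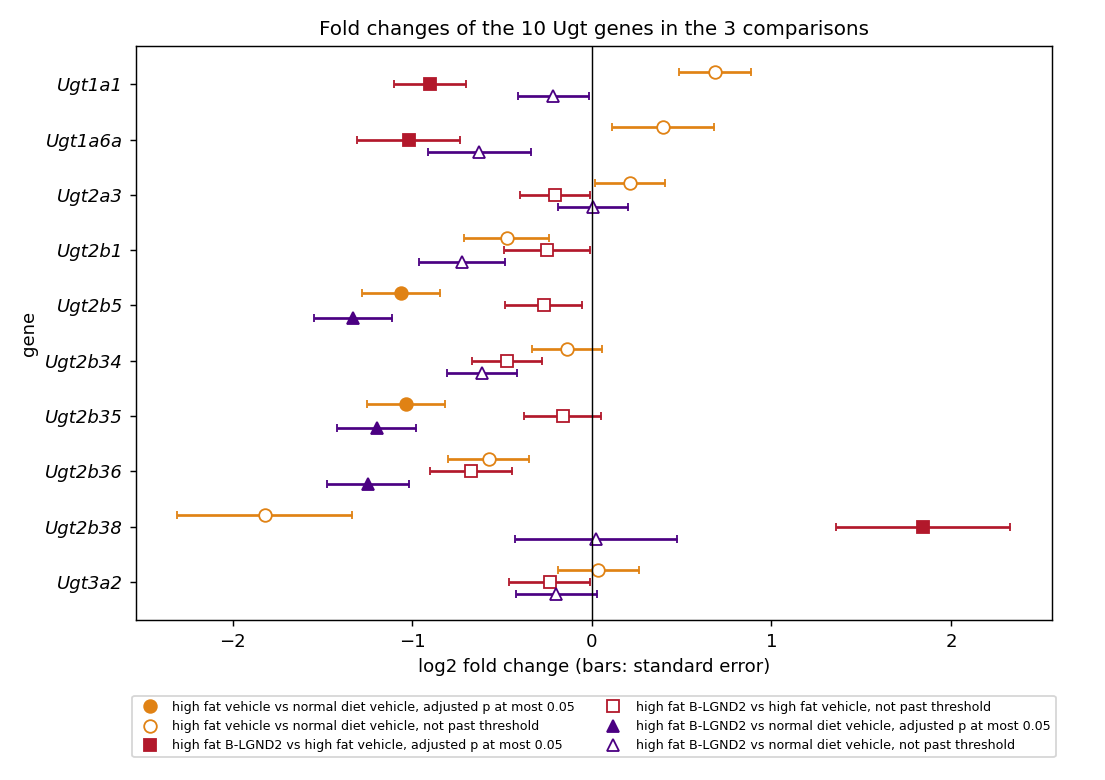
Log2 fold change of each of the 10 Ugt genes (x axis; bars are the standard error of the edgeR fit) in the comparisons of high fat vehicle with normal diet vehicle, high fat B-LGND2 with high fat vehicle and high fat B-LGND2 with normal diet vehicle; filled symbols have an adjusted p of at most 0.05. Ugt2b5 (-1.06 and -1.33) and Ugt2b35 (-1.04 and -1.20) are filled in both comparisons with normal diet, while Ugt1a1, Ugt1a6a and Ugt2b38 are filled in the B-LGND2 against vehicle comparison.

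Livers on high fat diet with B-LGND2 were also set against normal diet with vehicle, a comparison in which diet and ligand act together and which shares libraries with both others. Ugt2b5, Ugt2b35 and Ugt2b36 were each lower without overlap and passed. In all 3 of the 10 fell and 0 rose, where 2.93% of all genes were called (1.33% fell). The median of the 10 was -0.62 and that of the 6 Ugt2b genes -0.96, against -0.01 over all genes. With the length and GC correction these medians were -0.25 and -0.45. For 5 genes the groups did not overlap, all lower with B-LGND2, where 20.5% of all genes had no overlap. In the same comparison 9 of 10 macrophage and 3 of 6 endothelial markers rose, where 1.59% of all genes rose. The part of these markers in these results was not tested.

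Ugt2b5 was 2.51-fold lower, with 257, 313 and 340.4 CPM with B-LGND2, against 679, 657 and 951 CPM on normal diet (log2 fold change -1.33, SE 0.22, edgeR adjusted p = 0.00429). Ugt2b35 was 2.29-fold lower, at 105 ± 20.5 against 241 ± 43.0 CPM (-1.20, SE 0.22, adjusted p = 0.00896). Ugt2b36 was 2.37-fold lower, at 244 ± 21.4 against 579 ± 167 CPM (-1.25, SE 0.23, adjusted p = 0.00928), and its normal diet replicate 3 at 772 CPM was far above the other normal diet libraries. These calls held in 9 of the 9 fits that left out 1 library, with adjusted p up to 0.0275 for Ugt2b5, 0.0424 for Ugt2b35 and 0.0474 for Ugt2b36. With the length and GC correction the values were -0.76 for Ugt2b5 (adjusted p = 0.0220), -0.78 for Ugt2b35 (0.0212) and -0.64 for Ugt2b36 (0.0568, no longer past the threshold).

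Ugt2b1 was lower in 3 of 3 libraries, 479 ± 37.5 against 791 ± 129 CPM (-0.72, SE 0.24, edgeR adjusted p = 0.111), and Ugt2b34 likewise, 389 ± 51.8 against 594 ± 10.4 CPM (-0.61, SE 0.20, adjusted p = 0.103), but neither passed. Ugt2a3 had 330.0, 312 and 382 CPM with B-LGND2, against 334, 357 and 329 CPM on normal diet (0.01, SE 0.20, adjusted p = 0.992). Ugt2b38 had means of 21.4 ± 15.1 and 20.996 ± 4.13 CPM (0.02, SE 0.45, adjusted p = 0.986), with an error that spans a wide range of folds. Ugt1a1 (-0.22), Ugt1a6a (-0.63) and Ugt3a2 (-0.20) did not pass either (adjusted p 0.590, 0.242 and 0.673).

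**Figure D3:**
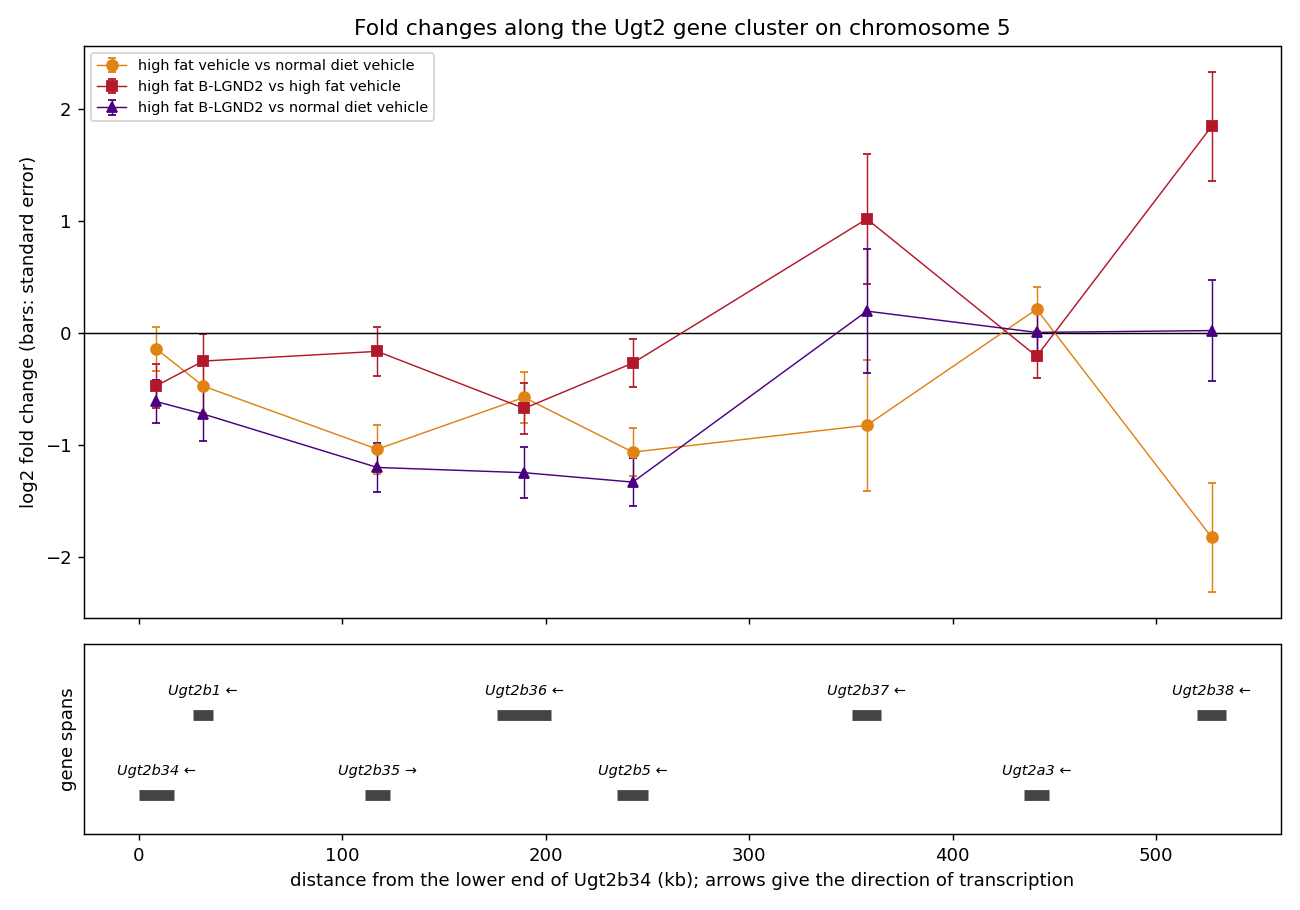
Log2 fold changes with standard errors (upper panel, y axis) of the chromosome 5 Ugt2 genes that were tested, at their distance in kilobases from the lower end of Ugt2b34 (x axis), above their spans and directions of transcription (lower panel); Ugt2b37 is shown beside the 7 described genes of the cluster. In the comparison of B-LGND2 with normal diet, Ugt2b35, Ugt2b36 and Ugt2b5 are neighbours with values from -1.33 to -1.20. Ugt2b34 and Ugt2b1 on the near side are at -0.61 and -0.72. On the far side Ugt2b37, Ugt2a3 and Ugt2b38 are at 0.20, 0.01 and 0.02.

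Ugt2b35, Ugt2b36 and Ugt2b5, the genes called in the comparison of B-LGND2 livers with normal diet, lie next to each other, with transcripts 86.3% to 87.2% identical. Ugt2b35 is transcribed in the opposite direction from its neighbours. Over the 9 libraries the log2 levels of Ugt2b5 and Ugt2b35 had a Pearson correlation of 0.99, the highest of any gene with either, those of Ugt2b5 and Ugt2b36 one of 0.92, and those of Ugt2b5 and Ugt2b38 one of 0.34. After Ugt2b35, the genes most like Ugt2b5 were Cyp3a59 (0.97) and Gsta4 (0.96), and those most like Ugt2b35 after Ugt2b5 were Abcb11 (0.97) and Spryd7 (0.97). Nearest to Ugt2b36 were Ndufb11, Immp2l and Ccdc28a (0.98, 0.97 and 0.97), to Ugt1a1 Cpeb2, Uox and Dock8 (0.99, 0.98 and 0.97), to Ugt1a6a Nrd1, Il15ra and Atg7 (0.97, 0.95 and 0.95), and to Ugt2b38 Gm7733, Ddr2 and Zbp1 (0.94, 0.93 and 0.93). These correlations describe 9 libraries that fall into 3 groups, with library depth and composition shared by all genes, and carry no test.

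Among the other 11 Ugt genes of the table, 6 passed the filter: Ugt1a5, Ugt1a6b, Ugt1a7c, Ugt1a9, Ugt2b37 and Ugt3a1. The 9 Ugt1a genes were summed over their locus, where 50.3% (Ugt1a6a) to 82.7% (Ugt1a1) of the exon bases of a gene are shared. This sum does not depend on how counted reads were split among them, but any reads dropped as ambiguous are missing. The number of dropped reads is not known. The sum was 178, 208 and 188 CPM with B-LGND2. It was 301, 349 and 301 CPM in high fat vehicle libraries and 279.9, 228 and 219.6 CPM on normal diet. The high fat vehicle libraries were above all others in this sum. Ugt1a6b, the paralog of Ugt1a6a, fell with B-LGND2, with 23.5, 32.2 and 23.1 CPM against 48.8, 55.0 and 52.0 CPM with vehicle (-0.98, SE 0.26, edgeR adjusted p = 0.0380). In the diet comparison it was at 0.95 (SE 0.26), 51.9 ± 3.11 on high fat diet with vehicle against 26.9 ± 8.68 CPM on normal diet, and did not pass (adjusted p = 0.0558). It passed there without scaling (0.0486), with the length and GC correction (0.0418), in DESeq2 (0.0150) and in limma-voom (0.0495). Ugt1a9, another phenol conjugating enzyme, fell in the diet comparison, with 6.43, 9.17 and 6.55 CPM on high fat diet with vehicle, against 35.1, 16.4 and 17.1 CPM on normal diet (-1.63, SE 0.33, adjusted p = 0.0207). Its value with B-LGND2 against vehicle was 0.94 (adjusted p = 0.0966). Ugt1a7c was at -1.63 for diet (adjusted p = 0.0710) and 1.59 for B-LGND2 against vehicle (0.0650), and passed in both by DESeq2 (0.0125 and 0.0141). Ugt3a1, whose human counterpart uses UDP-N-acetylglucosamine, fell with B-LGND2, with 4.63, 7.65 and 10.3 CPM against 17.5, 20.9 and 19.2 CPM with vehicle (-1.36, SE 0.29, adjusted p = 0.0182), while its neighbour Ugt3a2 was at -0.23. Each of these 3 calls was lost when certain single libraries were left out: that of Ugt1a6b in 6 of 9 fits, with an adjusted p of up to 0.152, that of Ugt1a9 without high fat vehicle replicate 1 or 3 (up to 0.0973), and that of Ugt3a1 without any 1 high fat vehicle library or B-LGND2 replicate 1 (up to 0.0877).

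**Figure D4:**
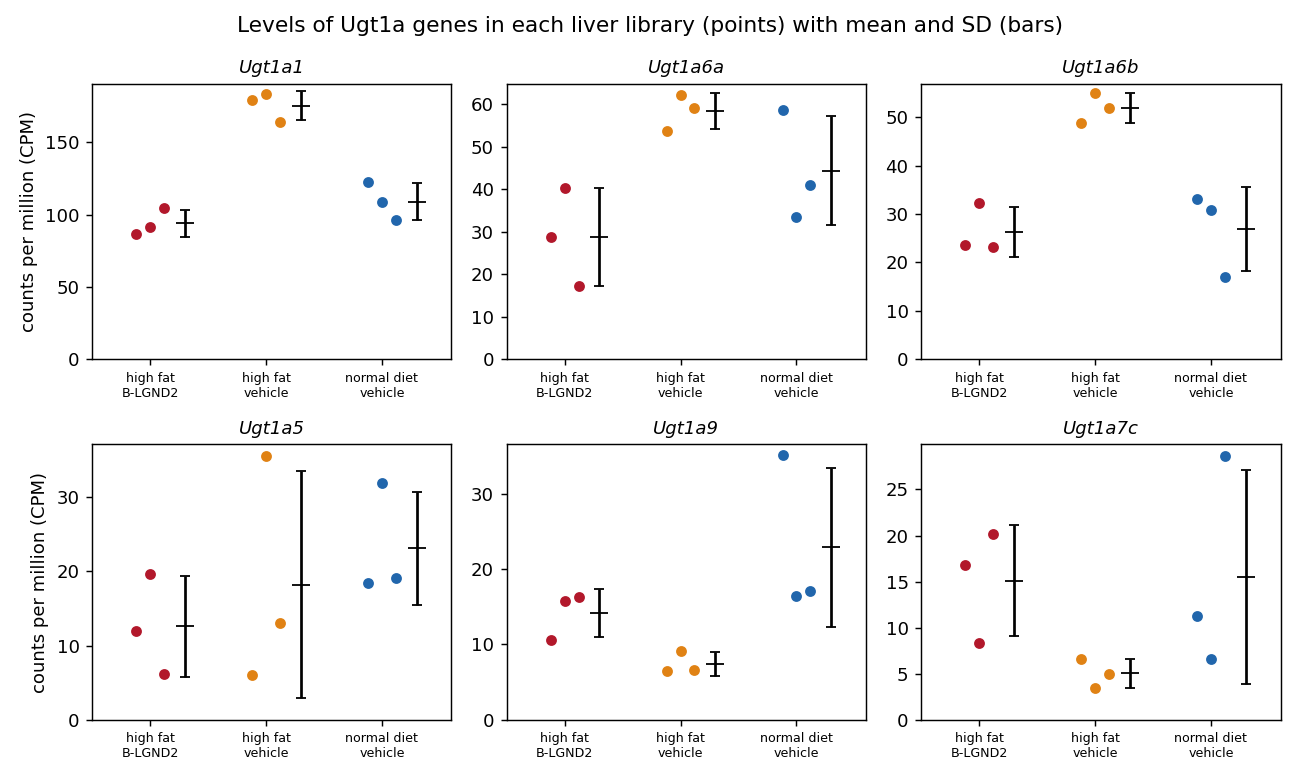
Level of the 6 Ugt1a genes that passed the filter in each liver library (y axes in counts per 1e6, from 0; 1 panel a gene), with high fat B-LGND2 left, high fat vehicle in the middle and normal diet vehicle right; points are libraries, bars the mean and SD of 3. Ugt1a1, Ugt1a6a and Ugt1a6b are lower with B-LGND2 than with vehicle on the high fat diet, while all 3 high fat vehicle libraries of Ugt1a9 lie under every other library.

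The pathway around the enzymes was read from lists of genes that supply the sugar, carry substrates and conjugates, form bilirubin or regulate Ugt genes. Of 7 genes of UDP-glucuronic acid supply and reversal, 0 passed in the diet comparison by edgeR or DESeq2 (1 had an unadjusted p below 0.05), and their median was -0.40. With B-LGND2 against vehicle Ugp2, which makes UDP-glucose, fell to 96.9 ± 31.5 CPM, against 174 ± 2.46 CPM (-0.85, SE 0.24, edgeR adjusted p = 0.0489), and the list median of -0.17 was 0.06 once corrected for length and GC content. With B-LGND2 against normal diet Ugdh, which oxidises UDP-glucose to UDP-glucuronic acid, fell to 31.7 ± 8.54 CPM, against 68.1 ± 9.97 CPM (-1.11, SE 0.23, adjusted p = 0.0198), as did Ugp2 by DESeq2. The adjusted p rose to as much as 0.178 for Ugp2 and 0.0820 for Ugdh when 1 library was left out. Of 4 genes of bilirubin formation, 0 passed edgeR's test in any comparison, with 2, 0 and 2 under an unadjusted p of 0.05 in the diet, B-LGND2 against vehicle and B-LGND2 against normal diet comparisons. Blvrb, a biliverdin reductase, fell with B-LGND2 against normal diet by DESeq2 and with the length and GC correction.

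Of 7 transporters, 3 fell with B-LGND2 against vehicle and 0 rose, where 2.56% of all genes fell, and their median was -0.90 (-0.61 with the length and GC correction). Slco1b2, an uptake carrier of hepatocytes for organic anions, had 425 ± 76.1 CPM with B-LGND2 and 799.8 ± 106 CPM with vehicle (-0.91, SE 0.22, edgeR adjusted p = 0.0246). Abcc3, which exports glucuronides to blood, had 88.4 ± 23.5 and 185 ± 26.4 CPM (-1.06, SE 0.27, adjusted p = 0.0316), and Abcg2, an exporter of the bile canaliculus, 13.2 ± 1.50 and 32.3 ± 0.931 CPM (-1.29, SE 0.24, adjusted p = 0.00797). Abcc2, the canalicular exporter of bilirubin glucuronides, was at -0.90 and did not pass (adjusted p = 0.0596), but did by DESeq2 and without scaling. The Abcg2 call held in 9 of the 9 fits without 1 library, that of Abcc3 in 4 (adjusted p up to 0.132) and that of Slco1b2 in 5 (up to 0.115). In the diet comparison 0 of the 7 passed by edgeR (2 had an unadjusted p below 0.05) and 0 by DESeq2. Their median was 0.27 (0.07 with the length and GC correction). With B-LGND2 against normal diet 1 of the 7 fell by edgeR, where 1.33% of all genes fell: Abcg2 (-1.02, SE 0.24, adjusted p = 0.0292). This call was kept in 2 of the 9 fits without 1 library, and was lost without scaling and with the length and GC correction, which called Abcc3 in its place. DESeq2 called Abcg2 and Slco1a4.

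Of 11 tested regulators, 2 rose on the high fat diet under vehicle and 0 fell, where 1.50% of all genes rose. Ahr, the aryl hydrocarbon receptor known to induce Ugt1a6 genes, had 85.1 ± 26.7 CPM on high fat diet with vehicle and 37.3 ± 4.70 CPM on normal diet (1.19, SE 0.29, edgeR adjusted p = 0.0366). Ppara, the fatty acid receptor, had 203 ± 26.2 CPM on high fat diet with vehicle and 83.7 ± 31.7 CPM on normal diet (1.28, SE 0.28, adjusted p = 0.0290). Against vehicle, 1 of the 11 fell with B-LGND2 and 1 rose, where 2.56% of all genes fell and 3.07% rose. With B-LGND2 against vehicle Ahr fell, at 34.4 ± 11.9 CPM (-1.31, SE 0.29, adjusted p = 0.0193), and Esr1, which encodes estrogen receptor alpha, rose (36.4 ± 8.47 against 16.8 ± 5.78 CPM; 1.12, SE 0.27, adjusted p = 0.0287, not called without scaling). The sensors Nr1i3 (CAR; 120 ± 25.6 with B-LGND2, 239.9 ± 76.0 with vehicle and 124 ± 52.4 CPM on normal diet) and Nr1i2 (PXR; 74.5 ± 7.48, 118 ± 3.28 and 102 ± 17.4 CPM) did not pass against vehicle (-0.99, adjusted p = 0.0605, and -0.67, adjusted p = 0.0658). They did in DESeq2, without scaling and with the length and GC correction. In the diet comparison Nr1i3 was at 0.95 (SE 0.30, adjusted p = 0.0826), and it passed by DESeq2. Esr2, which encodes estrogen receptor beta, had 0 counts in all 9 libraries, a result that leaves room for 3 counts in each. With B-LGND2 against normal diet 0 of the 11 passed by edgeR or DESeq2 (3 had an unadjusted p below 0.05 in edgeR's test). Leaving out single libraries ended the regulators' calls in 3 to 6 of 9 fits. The maximum adjusted p was 0.165 for Ahr, 0.108 for Ppara and 0.135 for Esr1.

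Of 6 tested sulfotransferases, the other large family of conjugating enzymes, 0 passed in the diet comparison by edgeR or DESeq2 (1 had an unadjusted p below 0.05). In each B-LGND2 comparison 1 of the 6 was called, where 5.63% (against vehicle) and 2.93% (against normal diet) of all genes were called. Sult5a1 rose with B-LGND2 against vehicle (16.5 ± 1.16 against 7.44 ± 1.17 CPM; 1.14, SE 0.27, edgeR adjusted p = 0.0262), and Sult2a8, a bile acid sulfotransferase, fell with B-LGND2 against normal diet (233 ± 79.4 against 516 ± 128 CPM; -1.15, SE 0.26, adjusted p = 0.0261). DESeq2 called 2 of the 6 in each, Sult5a1 and Sult2a8 against vehicle and Sult1b1 and Sult2a8 against normal diet. Sult5a1 was not called without scaling, nor Sult2a8 with the length and GC correction, and leaving out single libraries gave an adjusted p of up to 0.135 for Sult5a1 and 0.109 for Sult2a8. Beside the B-LGND2 results stand the markers of other liver cells. Of 10 macrophage markers 9 rose with B-LGND2 against vehicle and 9 against normal diet, where 3.07% and 1.59% of all genes rose. Their summed level was 1084 to 1348 CPM with B-LGND2. It was 307 to 405 CPM in high fat vehicle libraries and 314 to 514 CPM on normal diet. Of 6 endothelial markers 1 rose with B-LGND2 against vehicle and 3 against normal diet. Against vehicle all 6 values were above 0 (median 0.73), and 5 had an unadjusted p below 0.05 in edgeR's test. Against normal diet 5 were above 0 and 1 below (median 0.69). Called against vehicle were 0 without scaling, 1 by limma-voom, 2 by DESeq2 and 3 with the length and GC correction. The sum of the 6 was 186 to 208 CPM with B-LGND2. It was 102 to 141 CPM on high fat diet under vehicle and 121 to 169 CPM on normal diet. Of 7 hepatocyte markers 1 rose with B-LGND2 against vehicle, and 5 of the 7 values were above 0 (median 0.15). That 1 was Apoa1 (1.40, SE 0.34, adjusted p = 0.0283), with 500854, 161746 and 120400 counts with B-LGND2, and its call was lost without B-LGND2 replicate 1, the highest, or any 1 high fat vehicle library (up to 0.120). Alb (-0.45, adjusted p = 0.244) and Cps1 (-0.70, adjusted p = 0.174) were lower in 3 of 3 libraries without overlap and did not pass, and against normal diet 0 of the 7 passed by edgeR (1 had an unadjusted p below 0.05) or DESeq2. The part of macrophage and endothelial RNA in the lower Ugt levels was not tested.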

How the data were processed

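Poly(A) RNA of 9 livers was made into amplified, barcoded libraries and sequenced on an Ion Torrent Proton, per the labels' protocols. The authors deposited raw counts of reads per gene, whole numbers without normalization, for 45513 gene IDs. The submitters' processing notes name HTSeq 0.6.1p1, TopHat2 2.0.13 with Bowtie2 2.2.4, DESeq2 1.6.3, SAMtools 0.1.19 and the build GRCm38.p3. Not given in the sources used here are the strand setting, the annotation release and how reads in several genes were assigned.

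Gene IDs were matched to GENCODE M21 (44671 had a symbol). In R 4.3.3 with edgeR 4.0.16, filterByExpr (minimum count 10) kept 12102 genes, which held 99.7% or more of every library's counts. TMM scaling and a robust quasi-likelihood fit of group to all 9 libraries (6 residual degrees of freedom) gave 3 two-sided contrasts, with Benjamini-Hochberg adjustment over all genes tested and a threshold of 0.05. Adjusted p-values in the text without another tool's name are from this fit. Levels are CPM on TMM-scaled library sizes, mean ± SD, and counts from amplified libraries are not independent molecules. The floor for a count of 0 is 3 counts and covers counting error only. Likeness between genes is the Pearson correlation of log2(CPM + 0.5).

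Genes and gene lists were chosen with earlier results of these data known. All 10 genes are described whatever their values. 1 gene was left out of the lists and is not reported here. Genes of the lists other than cell type markers are named if they passed in any comparison, besides a few named for reference. Macrophage and endothelial markers are given as counts and sums. Markers of cholangiocytes, stellate cells and intestine were also read, and 0 of those tested passed by edgeR in any comparison. The genes most like a gene are named for the 6 genes called. Upstream windows are RefSeq's (GRCm38.p6), and identities come from global alignments with Biopython 1.88. Replicate numbers did not pair the libraries: deviations of same-numbered libraries correlated at -0.193 to 0.124. The test was also run on simulated counts, whose outcome is not given here and is not used as support for the calls. The alternatives were limma-voom (limma 3.58.1), the Wald test of DESeq2 1.42.0, its size factors in the edgeR fit, no scaling, no filter, a minimum of 50 counts in 3 libraries, only the 2 groups compared, a replicate block, offsets for transcript length and GC content (mgcv 1.9.3), the rRNA share as a covariate, and each library left out.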

Additional observations from a re-analysis of the deposited data

How the results depend on the processing

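Of the 10 genes, the diet comparison called 2, B-LGND2 against vehicle 3 and B-LGND2 against normal diet 3. Leaving out 1 library at a time gave 0 to 4, 0 to 3 and 3 to 3. With the rRNA share as a covariate it was 0, 0 and 0, with 4, 2 and 4 genes under an unadjusted p of 0.05 and 1, 2 and 12 of all genes called. The groups did not overlap in that share, so it and the group cannot be told apart in that fit. The DESeq2 Wald test called 4 for diet, and the length and GC correction 1 for B-LGND2 against vehicle. The replicate block, for numbers that pair no libraries, called 3, 2 and 3: Ugt2b38 passed for diet (-2.04, adjusted p = 0.0341) and Ugt1a6a did not with B-LGND2 against vehicle (-1.07, 0.0604). The counts under the remaining alternatives were within 1.5 times those reported.

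No called gene changed direction under an alternative in the comparison that called it. Over all genes tested, the counts called for the 3 comparisons were 362, 681 and 354, against 203, 492 and 253 with the replicate block, 153, 1420 and 144 with only 2 groups fitted, 969, 1123 and 660 by DESeq2 and 1182, 1345 and 751 with no filter. Without normal diet replicate 1 the diet count was 1860, and without high fat vehicle replicate 1 it was 35. Without scaling, 260 were higher and 98 lower for diet, against 182 and 180, and 211 higher and 468 lower for B-LGND2 against vehicle, against 371 and 310. The median of the 10 genes shrank to -0.08, -0.13 and -0.25 with the length and GC correction. Depth limits Ugt2b38 most, at 17 to 230 counts per library. Alternatives for list genes other than leaving out libraries, scaling, DESeq2, limma-voom and the length and GC correction were not run.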
